A study of Rattus norvegicus with 12 samples.

Results

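The 7 genes described here regulate cellular cholesterol: 5 control the sterol regulatory element-binding proteins (SREBPs) or encode them (Srebf1, Srebf2, Scap, Insig1, Insig2), 1 moves sterols within the cell (Stard4), and 1 controls lipoprotein receptors (Mylip). They were chosen by name, with earlier results of these data known. Their probes were taken as every probe of the array whose RefSeq accession belongs to one of them. This gave 11 probes of 7 genes, of 45598 probes and 16667 genes with a symbol, and all 11 passed the filter on dim probes. Liver RNA came from 12 adult male Wistar rats. For 4 weeks 6 of them ate a control diet with 14% casein and 6 ate a diet of equal energy content with 5% casein, called low protein here. Each liver was hybridised to its own single-colour array, and both diets shared strain, sex, tissue and duration. The design set out to relate metabolites of protein undernutrition to liver enzymes.

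SREBPs are transcription factors made as precursors in the membrane of the endoplasmic reticulum. When sterols are scarce, the escort protein SCAP carries them to the Golgi, where proteases release the active fragment that turns on genes of cholesterol and fatty acid synthesis. When sterols are abundant, the INSIG proteins hold SCAP in place. In liver, Srebf1 serves mostly lipogenesis and is raised by insulin and by the liver X receptors, whereas Srebf2 serves mostly cholesterol synthesis, and Insig1 is itself a target of SREBPs.

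The sequences upstream of the start sites are shown for the 2 gene pairs, Srebf1 with Srebf2 and Insig1 with Insig2, whose differences between diets are set against each other below. They are the 250 bases before the start, 5′ to 3′ on the gene's own strand, from RefSeq (GRCr8). For Srebf1, which has 2 starts in the table, the downstream start is shown. Capitals mark matches on either strand to the 5 motifs named after the sequences.
Srebf1, chr10:45519011-45519260, minus strand: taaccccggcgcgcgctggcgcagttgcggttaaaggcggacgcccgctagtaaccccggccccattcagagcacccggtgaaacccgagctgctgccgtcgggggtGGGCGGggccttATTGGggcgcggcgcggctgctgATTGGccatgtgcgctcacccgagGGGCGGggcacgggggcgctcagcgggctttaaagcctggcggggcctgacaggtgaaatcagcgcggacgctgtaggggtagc
Srebf2, chr7:115543057-115543306, plus strand: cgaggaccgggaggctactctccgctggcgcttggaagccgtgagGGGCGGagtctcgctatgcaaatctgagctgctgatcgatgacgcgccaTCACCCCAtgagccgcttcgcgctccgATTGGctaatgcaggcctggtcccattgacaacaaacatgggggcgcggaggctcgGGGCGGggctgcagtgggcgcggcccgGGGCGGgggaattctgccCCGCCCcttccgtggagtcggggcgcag
Insig1, chr4:8057770-8058019, minus strand: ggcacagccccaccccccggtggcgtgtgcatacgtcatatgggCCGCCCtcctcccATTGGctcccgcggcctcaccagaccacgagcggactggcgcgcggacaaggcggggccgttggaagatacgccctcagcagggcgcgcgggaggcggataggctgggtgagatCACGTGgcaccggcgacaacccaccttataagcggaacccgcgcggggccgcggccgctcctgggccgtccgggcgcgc
Insig2, chr13:35040099-35040348, minus strand: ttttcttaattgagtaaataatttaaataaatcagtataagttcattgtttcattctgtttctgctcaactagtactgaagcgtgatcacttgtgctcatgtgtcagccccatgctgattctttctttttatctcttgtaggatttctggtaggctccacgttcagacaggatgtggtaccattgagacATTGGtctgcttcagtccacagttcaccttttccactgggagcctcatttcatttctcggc

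The table held 7 upstream windows of 6 of the 7 genes, those of Srebf1 (2), Srebf2, Scap, Insig1, Insig2 and Mylip. None of the 7 windows held the longer sterol response element TCACNCCAC, which 0.974% of 33469 windows of the same length held. Its shorter core TCACNCCA, which any match of the longer motif also contains, was found in 3.24% of all windows and among these genes in that of Srebf2, at position -156 from the start. The E-box CACGTG, a palindrome counted once, was found in 5.59% of all windows, in that of Insig1 at position -79 and in that of Scap at position -50. The CCAAT box, searched by those letters, was present in 34.0% of all windows and in every one of these but that of Scap. The GC box GGGCGG was present in 30.5% of all windows and in every one of these but that of Insig2. A match describes letters in this window and does not show binding.

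Leaving out controls, 58717 spots were read per array, and 61.2% to 69.9% of them stood well above background. Values are log2 of the background-corrected signal less the log2 of the array's 75th percentile, so that 0 is the 75th percentile of an array, which lay at 942 to 1317 intensity units. Levels of different genes are not compared, since probes differ in brightness. The 12 arrays came from 2 slides, 4 arrays of each diet being on slide 1 and 2 of each on slide 2. Of 21858 genes tested with limma, 6.53% passed at an adjusted p under 0.05, 3.05% as lower in low protein livers and 3.48% as higher. Without scaling between arrays the median of all genes moved from -0.03 to 0.11, and the split of 761 higher and 667 lower genes became 680 and 212. Hepatocyte markers identified the tissue: 6 of 6 were measured, 2 of them (Apoa1 and Cps1) were lower by the test, and their summed signal, in multiples of the 75th percentile, ranged from 567 to 668 in control and from 478 to 636 in low protein livers. Among markers of Kupffer cells and macrophages, 7 of 7 had lower means in low protein livers, none passed limma's test and 5 had an unadjusted p under 0.05. Of all 21858 genes tested, 55.1% had lower means and 4720 had an unadjusted p under 0.05. The summed signal of these macrophage markers was 13.7 to 29.0 in control and 13.9 to 20.2 in low protein livers. The part of this in the results below was not tested. The 3 adipocyte markers did not pass the filter on dim probes. In bulk tissue, fewer cells of a type and less RNA per cell cannot be told apart.

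Against this background of 3.05%, 3 of the 7 genes were lower in low protein livers and none was higher. Since the genes were chosen with earlier results of these data known, this comparison is a description. Insig1, which holds the SCAP-SREBP complex in the endoplasmic reticulum, was 3.58-fold lower, Stard4, which carries cholesterol between membranes, was 1.58-fold lower, and Scap, the escort of the SREBPs, was 1.27-fold lower. Srebf1 had a difference of similar direction that missed the threshold, and Srebf2, Insig2 and Mylip did not pass the test. The median difference of the 7 genes was -0.34, beside -0.03 over all genes tested.

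**Figure D1:**
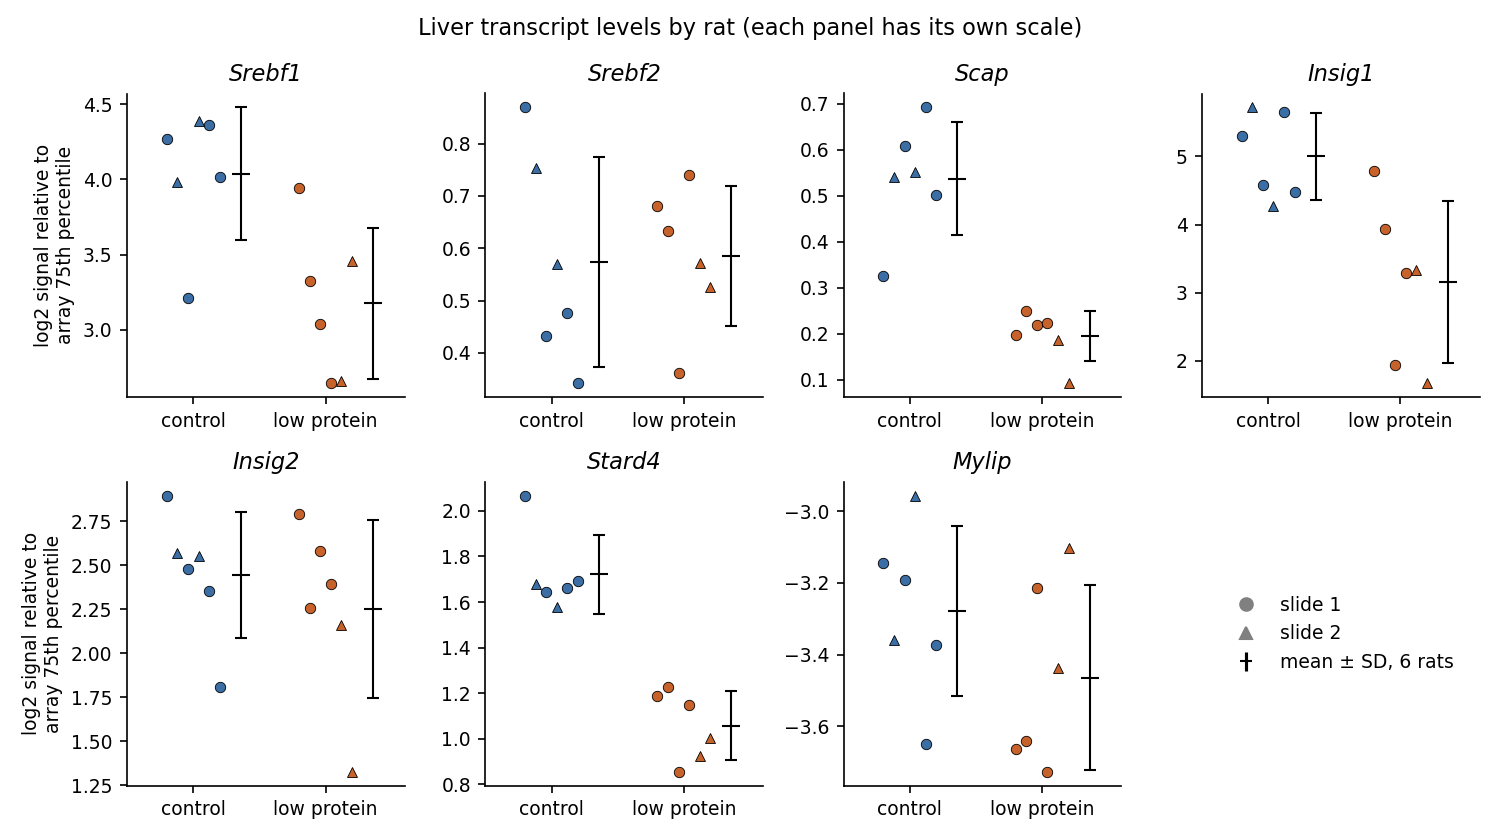
Values of the 7 genes in each rat, as log2 signal relative to the array's 75th percentile (each panel has its own scale). Circles are arrays of slide 1, triangles arrays of slide 2, and bars give the mean ± SD of 6 rats. The diets do not overlap for Scap and Stard4, while single rats of the other diet fall among the low protein or control values for Insig1 and Srebf1.

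Among the transcription factors, Srebf1 encodes SREBP-1, of which the SREBP-1c form is the main one in liver. Its values ran from 3.21 to 4.39 (median 4.14) in control livers and from 2.64 to 3.94 (median 3.18) in low protein livers. Most control rats lay above most low protein rats, but control rat 3, at 3.21, was below low protein rats 1, 2 and 6. The difference was -0.86 ± 0.25 (SE, n = 6 rats per diet; 95% interval -1.40 to -0.32), with a limma adjusted p = 0.059. Leaving out control rat 3 gave -1.03 with an adjusted p of 0.0261, and leaving out low protein rat 1 gave -1.01 with 0.0269. The adjusted p was also under the threshold after normexp background correction (0.0358), after quantile normalization (0.0331), with a trended robust spread (0.0495) and with the deposited raw values scaled in the same way (0.0413). These were the only passes, 6 of 27 alternatives. Without scaling between arrays the adjusted p was 0.121, and it reached 0.117 with 1 rat left out. The other probe of Srebf1, a dimmer one with the same accession, gave -0.94 ± 0.32 (adjusted p = 0.106 among all 25688 probes tested). Nothing in the files used here says which SREBP-1 form either probe reads.

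Srebf2 encodes SREBP-2, the form that serves cholesterol synthesis. Its values were 0.34 to 0.87 (median 0.52) in control and 0.36 to 0.74 (median 0.60) in low protein livers, so that the diets overlapped over nearly their whole range. The difference was 0.01 ± 0.10, with a 95% interval of -0.21 to 0.23 and a limma adjusted p of 0.967.

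The changes of these transcription factors were then set against each other. The pair comes from genes chosen with earlier results of these data known, so its p-value is a description. Within each array, Srebf1 less Srebf2 averaged 3.46 ± 0.42 (SD, n = 6) in control and 2.59 ± 0.51 in low protein livers, a shift of -0.87 (exact permutation test over all assignments of the rats to diets, two-sided p = 0.0130, p adjusted over 2 such comparisons = 0.0130). The shift ranged from -1.01 to -0.73 when each rat was left out in turn. Srebf2 itself differed by 0.01, so this shift is nearly the difference of Srebf1 alone. That was -0.86, with a limma adjusted p of 0.059 over all genes tested. The p of the shift was adjusted over 2 comparisons only.

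Scap, which binds both SREBPs and senses sterols, had values of 0.33 to 0.69 (median 0.55) in control and of 0.09 to 0.25 (median 0.21) in low protein livers. All 6 low protein rats lay below all 6 control rats, as was the case in this direction for 1.99% of genes tested. The low protein values were also closely spaced, with an SD of 0.05 against 0.12 in control. The difference was -0.34 ± 0.07 (95% interval -0.49 to -0.19, limma adjusted p = 0.0135). This small difference is relative to the other genes of the array: without scaling between arrays it was -0.21 (adjusted p = 0.427), and in the deposited raw values -0.19 (adjusted p = 0.388). It was -0.34 without the filter on dim probes as well, with an adjusted p of 0.0554.

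Insig1 had the largest difference of the 7 genes. Its arithmetic mean signal, before scaling between arrays, was 36389 intensity units in control and 12728 in low protein livers. The 3.58-fold difference given above comes from the scaled log2 values instead. Values were 4.27 to 5.72 (median 4.94) in control and 1.67 to 4.79 (median 3.31) in low protein livers. Low protein rats 3 and 6, at 1.94 and 1.67, were the lowest, and low protein rat 1, at 4.79, lay among the control rats. The spread was wider in low protein livers, with an SD of 1.18 against 0.64. The difference was -1.84 ± 0.49 (95% interval -2.91 to -0.77, limma adjusted p = 0.0436), and 0.210% of genes tested had a difference as low or lower. The other probe gave -2.08 ± 0.54 (adjusted p = 0.0381 among all probes), from a mean of 3.69 ± 0.78 (SD) in control to 1.61 ± 1.26 in low protein livers. The call was close to the threshold: in the 12 fits that each left out 1 rat the difference stayed between -2.17 and -1.54, but the adjusted p was under 0.05 in 1 of them (0.0162, without low protein rat 1) and reached 0.0891 in the others. Without the filter on dim probes the adjusted p was 0.108.

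Insig2, the second retention protein, is known in liver for a transcript that insulin lowers. It was at 1.81 to 2.89 (median 2.51) in control and at 1.33 to 2.79 (median 2.33) in low protein livers. The diets overlapped, with control rat 6 and low protein rat 6 lowest in their groups at 1.81 and 1.33. The difference of -0.19 ± 0.23 had a 95% interval of -0.69 to 0.31 (limma adjusted p = 0.699), and the other probe gave -0.26 ± 0.19 (adjusted p = 0.476).

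The same comparison was made for Insig1 and Insig2, with the same limit on its p-value. Within arrays, Insig1 less Insig2 averaged 2.56 ± 0.61 (SD, n = 6) in control and 0.91 ± 0.96 in low protein livers. The shift was -1.65 (exact permutation test, two-sided p = 0.00433, adjusted p = 0.00866 over 2 comparisons; the smallest p this design allows is 0.00216). It ranged from -1.87 to -1.34 with each rat left out in turn, and its adjusted p then stayed at or below 0.0216.

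**Figure D2:**
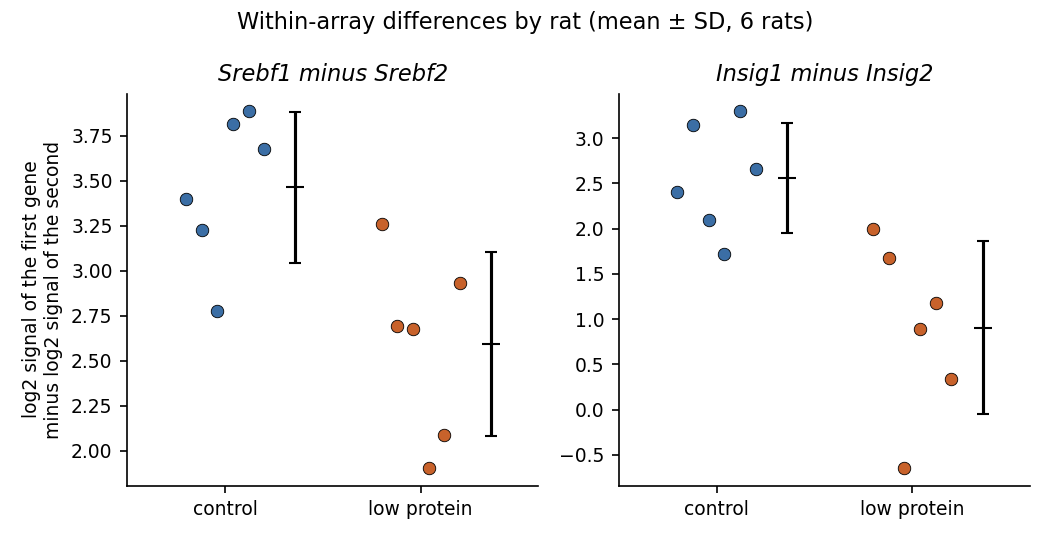
Difference of log2 signal within each array, Srebf1 less Srebf2 on the left and Insig1 less Insig2 on the right, for each rat (points) with the mean ± SD of 6 rats (bars). Means go from 3.46 to 2.59 and from 2.56 to 0.91; the height of a difference reflects probe brightness, and the comparison is between diets.

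Stard4, a START domain protein and a known SREBP target, had values of 1.58 to 2.07 (median 1.67) in control and of 0.86 to 1.23 (median 1.08) in low protein livers. No low protein rat reached the lowest control rat, and control rat 1 stood above the other control rats, which lay between 1.58 and 1.69. The difference was -0.66 ± 0.10 (95% interval -0.88 to -0.45, limma adjusted p = 0.00236). It passed in all 12 fits that left out 1 rat, with values of -0.70 to -0.59. The other Stard4 probe was far dimmer, at 13.5 to 33.4 intensity units over the 12 arrays, and gave -0.74 ± 0.19 (adjusted p = 0.0339 among all probes). For this dim probe the difference was -0.25 after normexp, whose offset compresses dim spots, with an adjusted p of 0.177.

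Mylip is the ubiquitin ligase, induced by liver X receptors, that marks lipoprotein receptors for degradation. It was dim, at 74.4 to 168 intensity units. Its values were -3.65 to -2.96 (median -3.28) in control and -3.73 to -3.10 (median -3.54) in low protein livers. The ranges overlapped, and the difference of -0.19 ± 0.14 had a 95% interval of -0.48 to 0.11 (limma adjusted p = 0.487).

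**Figure D3:**
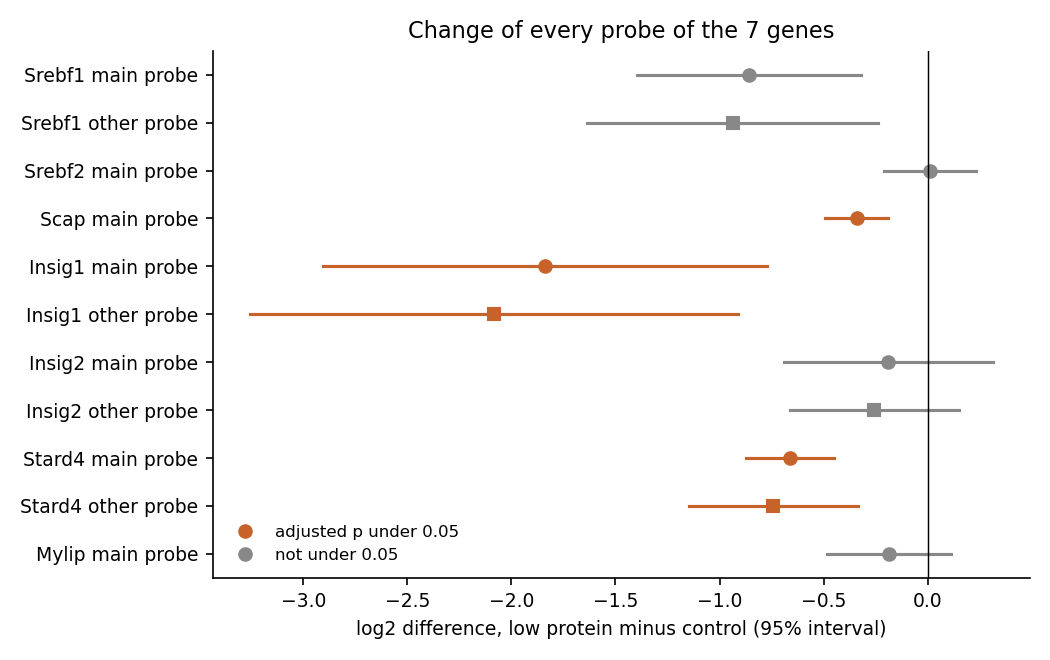
Log2 difference, low protein minus control, of each of the 11 probes with its 95% interval from limma. Circles are the brighter probe of a gene, squares the other probe, and coloured points have an adjusted p under 0.05. Both probes of Insig1 and of Stard4 pass, as does that of Scap, and the intervals of Srebf2, Insig2 and Mylip include 0.

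Where a gene had 2 probes, they gave like differences, and the 5 probes called lower of 11 compare with 3.22% of all 25688 probes tested. That count depended on single rats and on the filter. It was 2 without control rats 1 or 2 or low protein rats 3, 4 or 5, it was 3 without control rats 3, 5 or 6 or low protein rats 2 or 6, and it was 4 when control rat 4 was left out and 7 when low protein rat 1 was. The deposited raw values gave 3, and dropping the filter on dim probes gave 1. The other probes of Insig1 and of Stard4 each passed in 4 of the 12 fits that left out 1 rat, with adjusted p-values of 0.0164 to 0.0785 and of 0.0193 to 0.0725. Within slides 1 and 2 taken alone, the differences were -1.52 and -2.49 for Insig1, -0.66 and -0.67 for Stard4, -0.31 and -0.41 for Scap and -0.73 and -1.13 for Srebf1. None of these passed limma's test within a slide, where fewer arrays were compared. Those of Srebf2 were 0.07 and -0.11, those of Insig2 were 0.12 and -0.82 and those of Mylip were -0.22 and -0.11, so Srebf2 and Insig2 had different signs on the slides.

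Among rats of the same diet, the 7 genes gave 21 pairs and 42 correlations over 6 rats each. None had an adjusted p under 0.05, and 4 had an unadjusted exact permutation p under 0.05. The lowest p was that of Srebf2 with Insig2 in control rats (Pearson r = 0.85, permutation p = 0.0167, adjusted p = 0.365; Spearman rho = 0.94, permutation p = 0.0167, adjusted p = 0.350), with r = 0.86 without the 2 rats farthest from the median of Srebf2 and r = 0.84 with slide means removed. In low protein rats, Srebf2 and Mylip ran opposite (r = -0.85, permutation p = 0.0264, adjusted p = 0.365; rho = -0.94, permutation p = 0.0167, adjusted p = 0.350), with r = -0.93 without the 2 farthest rats. Neither pair was alike in the other diet: Srebf2 with Insig2 had r = 0.16 in low protein rats, and Srebf2 with Mylip r = 0.29 in control rats. With slide means removed, the permutation p of the former pair in control rats was 0.0528, and that of the latter in low protein rats 0.0111.

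To name the genes whose pattern over rats was most like that of each member, diet means were removed and Pearson's r was taken over the 12 arrays against 11363 genes with a symbol. These r values are the highest of many, share array-wide variation, and are descriptions. For Insig1 they were those of Cdc42ep4 (0.94), Fam110a (0.94) and Ip6k2 (0.92), whose diet differences did not pass the test (-0.11, 0.02 and -0.19). For Stard4 they were Irak1 (0.95), the folate enzyme gene Mthfd1 (0.93, itself higher in low protein livers at 0.38 ± 0.10) and Ints4 (0.93). For Scap they were C1h11orf58 (0.89), the ribosomal protein gene Rpl23a (0.89) and Capza2 (0.88). Those of Srebf1 were the mitochondrial deacylase gene Sirt5 (0.88), Or6z5 (0.86) and C1qbp (0.86, with a diet difference of 0.57 ± 0.07 that passed). Those of Srebf2 were Septin11 (0.95), Pdlim4 (0.91) and Pir (0.91, higher at 1.09 ± 0.20). Insig2 was most like Litaf (0.95), Clip2 (0.95) and Pip4k2b (0.94), and Mylip most like Kif26a (0.91), Slc49a3 (0.90) and the lamin gene Lmnb1 (0.88).

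The enzymes that SREBPs control were lower in part. The lists of this and the next paragraphs were also chosen with earlier results known, so their counts beside all genes are descriptions. Of 20 genes of cholesterol synthesis tested, 8 were lower and none higher by limma's test, beside 3.05% and 3.48% of all genes tested, with a median difference of -0.51. Without scaling 4 were lower and the median was -0.38. The 8 included Tm7sf2, a sterol reductase (-1.32 ± 0.21, adjusted p = 0.00395), the phosphomevalonate kinase gene Pmvk (-1.17 ± 0.21), the lanosterol synthase gene Lss (-0.85 ± 0.13) and Ebp, a sterol isomerase (-0.52 ± 0.09, but -0.39 with an adjusted p of 0.0865 without scaling). Of 14 genes of fatty acid synthesis that SREBP-1c drives, 5 were lower and none higher, against the same shares of all genes, with a median of -0.61, or 4 lower and a median of -0.48 without scaling. The acetyl-CoA carboxylase gene Acacb (-1.33 ± 0.13, adjusted p = 0.000113), the elongase gene Elovl5 (-0.85 ± 0.11), the desaturase gene Fads1 (-0.87 ± 0.12) and Pnpla3, a lipid droplet protein gene (-3.69 ± 0.68), were among them. Acacb was dim, and its difference was -0.68 after normexp and -0.78 in the deposited raw values. Not every gene of this list had a lower mean in low protein livers. The malic enzyme gene Me1, which was chosen after its values were seen, was at 0.92 ± 0.26 (adjusted p = 0.0524) and passed as higher in 8 of 27 alternatives, among them those with no scaling (1.05, 0.0318), or leaving out control rat 5 (0.0280) or low protein rat 3 (0.0341). The acetyl-CoA carboxylase gene Acaca and the elongase gene Elovl6, chosen in the same way, were at 0.50 ± 0.31 and 0.39 ± 0.41.

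Of 16 genes of the machinery that processes and degrades SREBPs, 14 were tested, none passed limma's test and 3 had an unadjusted p under 0.05, beside 4720 of the 21858 genes tested. Their median was -0.01, or 0.12 without scaling. Mbtps2, the site 2 protease that releases the SREBP fragment, was at -0.55 ± 0.15 (adjusted p = 0.0517), but it was not well above background on any low protein array and passed the filter through 5 of 6 control arrays. Its difference was -0.14 after normexp, -0.02 in the deposited raw values and -0.02 for its brightest probe without the filter. Mbtps2 passed in 4 of 26 alternatives, among them quantile normalization (0.0236) and the fits without low protein rat 3 (0.0338) or 5 (0.0471). Paqr3, which anchors SCAP and SREBP at the Golgi, was at 0.45 ± 0.15 (adjusted p = 0.0984) and passed in only 3 of 27 alternatives. These were without scaling (0.0329), in the deposited raw values (0.0137) and without low protein rat 4 (0.0420). With 1 rat left out its adjusted p reached 0.178.

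Around the uptake, storage and transport of cholesterol, 16 of 19 genes were tested. Of these, 1 was higher and 2 were lower, beside 3.48% and 3.05% of all genes tested. The list median was -0.01, or 0.12 without scaling. Soat2, which esterifies cholesterol in hepatocytes, was higher (0.63 ± 0.12, adjusted p = 0.00725). Npc2, the lysosomal carrier that hands cholesterol on, was lower (-0.41 ± 0.10, adjusted p = 0.0315), but its adjusted p was 0.154 without scaling, and with each rat left out in turn it ran from 0.0187 to 0.0748 and passed in 5 of 12 fits. The number of genes called lower here was 0 without control rat 1, control rat 5 or low protein rats 2, 4, 5 or 6, and 1 without control rats 2, 3 or 4 or low protein rat 3.

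Of the liver X receptors and their targets, none of 10 genes passed limma's test. An unadjusted p under 0.05 was found for 1 of them, beside 4720 of the 21858 genes tested. The lysophospholipid acyltransferase gene Lpcat3 was at -0.39 ± 0.12 (adjusted p = 0.0843). It passed in 2 of 27 alternatives, among them that without low protein rat 1 (0.0452). The receptor gene Nr1h3 was at -0.16 ± 0.09. None of 9 genes of insulin and carbohydrate signals to SREBP-1c passed, and 1 had an unadjusted p under 0.05, beside the same share of all genes. The insulin receptor substrate gene Irs1 was at -0.29 ± 0.10 (adjusted p = 0.112) and passed in 1 of 27 alternatives, after normexp (0.0474). Igfbp1 was at -0.80 ± 0.43 (adjusted p = 0.318). The list medians were -0.19 and -0.15, or -0.06 and -0.01 without scaling.

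**Figure D4:**
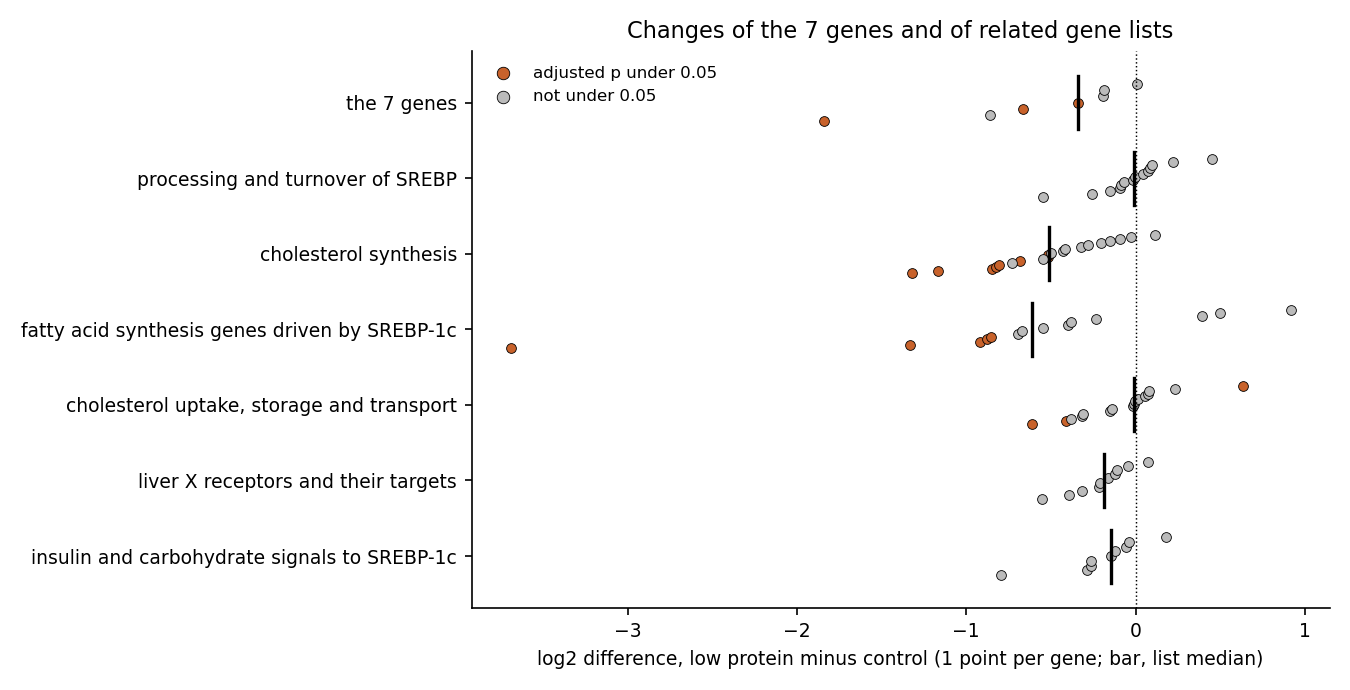
Log2 differences, low protein minus control, of the 7 genes and of 6 related gene lists, with 1 point per gene tested; coloured points have an adjusted p under 0.05 and vertical bars are list medians. Called points are lower in cholesterol and fatty acid synthesis (8 of 20 and 5 of 14), beside 3.05% of all genes tested. None is called for SREBP processing, liver X receptors or insulin signals.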

How the data were processed

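Liver RNA of 12 rats was labelled with Cy3 and hybridised to 1-colour Agilent arrays, per the labels. The deposited scanner files hold linear intensity from Agilent Feature Extraction 12.0.3.1, per the file headers: the authors' processed signal is background-subtracted and detrended, with no normalization across arrays. In turn the table of deposited values equals the median intensity at 100% of spots, so it is raw, and 0 of its columns lack a sample.

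Control spots and spots marked as outliers (453 to 739 per array) were dropped, so some probes lack a value on some arrays. Intensities were scaled to each array's 75th percentile, log2-transformed and averaged per probe. A probe was kept if 5 or more of the 6 arrays of either diet had it well above background. Each gene was represented by its probe with the highest mean, and a second fit took all probes. Low protein minus control was fitted in R 4.3.3 by limma 3.58.1, using its lmFit and eBayes functions; two-sided p-values were adjusted by Benjamini-Hochberg over everything tested, and every adjusted p is limma's unless another test is named. The fit was tested on simulated data. Figures were drawn by matplotlib 3.10.9 under Python 3.11.15.

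RefSeq accessions (GRCr8) named 21215 probes (46.5%); the headers give another build, so the only coordinates printed are those of the RefSeq upstream windows, in GRCr8. The members and lists were chosen with earlier results of these data known. Named genes were the 7 members, up to 4 called genes per list by adjusted p (2 by p where none was called) and the 3 genes most like each member, with 3 genes of fatty acid synthesis added after their values were seen; 1 named by the rule is not reported here. Rats were grouped by the labels. Alternatives covered background correction, scaling, deposited values, filters, probes per gene, the spread estimate, slide, rat number and each array left out. The number of arrays limits precision; nothing in the labels says more of how the rats were housed, so p-values measure the spread between these samples.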

Additional observations from a re-analysis of the deposited data

Results flagged for a closer look

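Groups of 6 rats were examined for each probe of the 7 genes, each list gene given by the rule for named genes, and Me1, in each diet. Acaca and Elovl6 were not examined. Of these 58 groups, 3 held a rat whose gap to the nearest other rat took up more of the group's range than Dixon's 95% critical value. Chance marks about 5% of such groups. Control rat 1 stood above the other control rats for Stard4, at 2.07 against 1.58 to 1.69, with a gap of 0.766 of the range. Control rat 3 stood below the others for Srebf1, at 3.21 against 3.98 to 4.39, with a gap of 0.654 of the range. Low protein rat 3 stood below the others for Mbtps2, at -8.04 against -7.38 to -7.04, with a gap of 0.659 of the range, on arrays where this probe was not well above background.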

How the results depend on the processing

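Stard4 was lower in all 27 alternatives and passed in 25, Scap was lower in 27 and passed in 22, and Insig1 was lower in 27 and passed in 13. Both tests of paired changes passed in all of their 14 alternatives. These were normexp, the mean of all probes of a gene and the 12 fits that left out 1 rat. Quantile normalization, deposited values, filters, slide and rat number were not varied for these tests. With each rat left out in turn, differences ranged from -1.03 to -0.75 for Srebf1, -0.035 to 0.070 for Srebf2, -0.38 to -0.31 for Scap, -2.17 to -1.54 for Insig1, -0.32 to -0.01 for Insig2, -0.70 to -0.59 for Stard4 and -0.26 to -0.12 for Mylip, and 2 to 4 of the 7 genes were called. The counts then ranged from 856 (without control rat 3) to 1307 genes and from 1016 to 1557 probes, with 6 to 9 genes of cholesterol synthesis lower, 5 to 6 of fatty acid synthesis lower and 0 to 1 higher, 0 to 2 of uptake lower, 0 to 1 of SREBP processing either way and 0 to 1 of liver X receptor targets lower. Srebf1 was lower in all 27 alternatives and was called in 6. These were the fits without control rat 3 or low protein rat 1, and 4 others. The others were normexp (-0.87), quantile normalization (-0.94), scaled deposited values (-0.87) and a trended robust spread (-0.86). After normexp 1 gene of fatty acid synthesis was called higher and 1 of insulin signals lower. Without scaling 892 genes and 1080 probes changed, Scap lost its call (-0.21), 1 gene of SREBP processing and 1 of fatty acid synthesis were higher, and 4 of cholesterol synthesis and 0 of uptake were lower. The deposited values as they stand gave Scap at -0.19, Mylip at 0.011 and the same 1, 1 and 0 genes for processing (higher), fatty acid synthesis (higher) and uptake (lower). Scaled deposited values, the trended spread and the filter at all 12 arrays each called 1 gene of fatty acid synthesis higher, quantile normalization 1 of processing lower, and median scaling and the slide block 1 of uptake lower. Without the filter on dim probes 618 genes, 756 probes and 1 of the 7 genes passed (Scap -0.34 and Insig1 -1.84 did not), with 2 genes of uptake higher and 0 lower; more features were then tested. Within slide 1 (slide 2) 164 (12) genes and 227 (15) probes changed, and 0 (0) of the 7 genes, 0 (0) of cholesterol synthesis and 0 (0) of uptake in either direction; no gene of fatty acid synthesis was called on slide 2 (0). Values there were -0.31 (-0.41) for Scap, -1.52 (-2.49) for Insig1 and -0.66 (-0.67) for Stard4; Insig2 was at 0.12 and its other probe at 0.048 on slide 1, and Srebf2 at -0.11 on slide 2. Fewer arrays enter each such fit. No correlation among the 7 genes passed with or without slide means removed. The causes of the other changes were not tested.

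The sample titles number the rats of each diet and name no pairing. Same-numbered rats had correlations of 0.03 to 0.26 in their deviations from the diet means, over 0.1 in 5 of 6 pairs. Of the 6 control rats, 2 were closest to their own number. Whether the numbers reflect a pairing is not known. With rat number as a replicate block 1412 genes and 1702 probes changed, the 7 genes kept their calls at -0.86 for Srebf1 (adjusted p = 0.0783), 0.01 for Srebf2, -0.34 for Scap, -1.84 for Insig1, -0.19 for Insig2, -0.66 for Stard4 and -0.19 for Mylip, and 1 gene of processing and 1 of liver X receptor targets were lower.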
